A study of Rattus norvegicus with 16 samples.

Results

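Pf4-high and Pf4-low blood are the 5 saline control libraries with the most and the 5 with the least transcript of Pf4, platelet factor 4, out of 16 libraries of rat whole blood. The members were chosen by a measured value and not by a treatment. Estimated counts were rounded, divided by one size factor per library over the genes listed in all 16 count files (normalized counts), and the libraries were ranked by Pf4. The 10 libraries compared were controls 7, 2, 16, 8 and 5 (Pf4-high) and controls 3, 12, 4, 13 and 10 (Pf4-low), each list running from more to less Pf4. The other 6 libraries, controls 11, 15, 9, 6, 14 and 1, formed the middle of the order. All 16 came from male Sprague-Dawley rats aged 85 to 90 days that had been given saline under the skin in 4 doses of 1 ml/kg, 2 h apart, and were killed 3 h after the last dose. No genotype, allele or drug separated the groups. Blood was drawn from the heart by needle, alpha and beta globin mRNA was depleted, and polyadenylated RNA was sequenced. Every library was one animal.

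Platelets have no nucleus and carry RNA that they received from megakaryocytes, the bone marrow cells that shed them. That RNA is rich in a small set of transcripts for granule chemokines, adhesion receptors, a contractile cytoskeleton and signalling proteins. Pf4 and Ppbp encode chemokines stored in platelet alpha granules, and Itga2b encodes the alpha chain of the fibrinogen receptor, so these genes mark platelets among blood cells. In bulk blood, fewer platelets and less RNA per platelet cannot be told apart. Platelet genes are read from the same cells as Pf4 in the same libraries, so their differences describe how far they followed Pf4 and are no independent support for it.

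Libraries held 21466828 to 31189603 counts. In the Pf4-high group the total was 2.73e+07 ± 2.79e+06 and in the Pf4-low group 2.53e+07 ± 3.12e+06 (SD, n = 5 each), with p = 0.286 in an exact permutation test, two-sided, over the 252 ways to split the libraries. Globin entries took 8.11% to 13.9% of the counts in Pf4-high and 3.71% to 13.4% in Pf4-low libraries (p = 0.151 in the same exact permutation test). The share of the 20 highest genes, the ribosomal protein share, the share of the mitochondrial gene MT-ATP6 and the number of genes with a count gave exact permutation p between 0.294 and 0.944. Adjusted over the 6 measures, p lay between 0.5 and 0.944, and 0.0079 is the smallest p that 5 against 5 allows. Libraries carried 6 codes in the names of their files, here called run codes and lettered A to F. Neither the names nor the labels say what the codes stand for. The study repeated its experiment at separate times and no label ties a library to a repeat, so run and repeat cannot be told apart. Controls 7, 8 and 5 of the Pf4-high group and controls 4 and 10 of the Pf4-low group shared run B, control 2 (high) and control 3 (low) shared run A, control 16 (high) was run F, and controls 12 and 13 (low) were run D. Control 2 stood apart by liver transcripts and control 12 by thymus and fat transcripts. Control 10 had the lowest level of the 16 in 53 of the 80 platelet genes tested (66.25%, beside 8.84% of all genes).

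Pf4 (ENSRNOG00000028015) ran from 75282 normalized counts in control 7 to 5424 in control 10. The Pf4-high libraries had 75282, 63217, 54103, 49681 and 38670 in controls 7, 2, 16, 8 and 5. The Pf4-low libraries had 19102, 19054, 16568, 15393 and 5424 in controls 3, 12, 4, 13 and 10. The means were 56191 ± 13852 and 15108 ± 5646 (SD, n = 5 each), a 3.72-fold ratio, or 3.21-fold without control 10. These values set the groups and were not tested. At the edges of the groups control 5 (38670) stood next to control 11 (34073), and control 3 (19102) next to control 1 (23470). The order was nearly continuous there, so the groups are the ends of a range and not classes. Within run A, control 2 had 3.31 times the Pf4 of control 3. Scaling by TMM, a trimmed mean of ratios between libraries, chose the same 5 and 5 libraries.

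Ppbp (ENSRNOG00000002829), pro-platelet basic protein, was 227, 296, 371, 410 and 152 in the Pf4-high libraries, in the order given for Pf4. It was 143, 94.2, 92.8, 65.5 and 12.5 in the Pf4-low libraries. The groups did not overlap, with control 5 just above control 3. The log2 fold change, Pf4-high over Pf4-low, was 1.81 ± 0.47 (SE, edgeR's quasi-likelihood test, adjusted p = 0.187). The middle libraries spanned 78.4 to 418, wider than either group. Ranking by Ppbp instead of Pf4 kept 3 of the 5 high and 4 of the 5 low libraries, since controls 11 and 14 then entered the high group and control 1 the low one.

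Itga2b (ENSRNOG00000022071) was 11403, 10161, 28921, 18801 and 10727 in the Pf4-high and 4419, 3422, 11807, 9895 and 954 in the Pf4-low libraries, and 17300, 14818, 7198, 17459, 19740 and 10981 in the middle ones, each in falling order of Pf4. Control 4 of the Pf4-low group exceeded controls 7, 2 and 5 of the Pf4-high group, so the groups overlapped. The log2 fold change was 1.38 ± 0.58 (edgeR adjusted p = 0.331). Control 7, with the most Pf4, had less Itga2b than controls 11, 15, 6 and 14 of the middle. The 3 markers therefore shared their lowest library, control 10, but not their order above it.

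**Figure D1:**
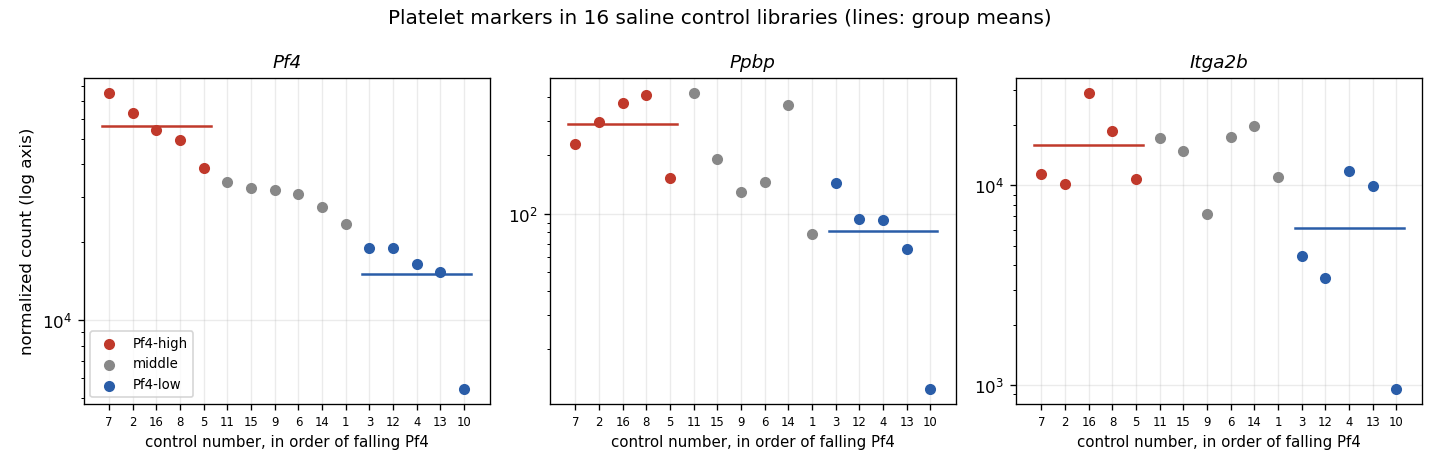
Normalized counts (log axis) of Pf4, Ppbp and Itga2b in the 16 saline control libraries, placed by falling Pf4. Each point is one library, red for Pf4-high, grey for the middle and blue for Pf4-low, and lines mark the means of the groups of 5. Ppbp separates the end groups (152 is the lowest high value, 143 the highest low one) and Itga2b does not.

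Across all genes, 12115 passed the filter on low counts and were tested with Pf4 left out. The median log2 fold change of all of them was -0.001, and 49.9% were positive. At an adjusted p under 0.05, 3 genes were higher in Pf4-high blood (0.0248% of the genes tested) and 0 were lower (0%). At an unadjusted p under 0.05 there were 848 higher (7.00%) and 866 lower genes (7.15%). The values of the groups did not overlap in 251 genes that were higher (2.07%) and 166 that were lower in Pf4-high blood (1.37%). These shares are the background for the platelet genes. Scaling to total counts, in place of TMM, moved the median of all genes to -0.44.

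The platelet genes were arranged in 4 lists, of granule proteins, surface receptors, cytoskeleton, and signalling and lipid enzymes, with 85 symbols in all. Of these, Pf4 chose the groups and 4 (Pdgfa, Cxcl5, Tuba8 and Dgki) failed the filter. Of the 80 tested, 73 were positive (91.25%), against 49.9% of all genes. Other lists were mostly positive too, with 70 of 81 ribosomal protein entries, 14 of 17 erythroid, 8 of 8 globin and 10 of 10 neutrophil genes. At an unadjusted p under 0.05, 45 were higher (56.25%, beside 7.00% of all genes) and 1 was lower (Sparc). In 24 (30%, beside 2.07%) every Pf4-high library exceeded every Pf4-low one. None of the 80 reached an adjusted p under 0.05 in the edgeR test. The median log2 fold change was 1.01. With total count scaling it was 0.49, where the median of all genes was -0.44. Summed over the lists without Pf4, the levels were 296060 to 508880 normalized counts in Pf4-high, 249970 to 409480 in middle and 114370 to 254720 in Pf4-low libraries. For 45 of the 80 genes (56.25%) the median of the middle libraries lay between the medians of the end groups, which was so for 35.5% of all genes.

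Other ways of using the same libraries called more platelet genes. DESeq2's Wald test on the same 10 libraries called 22 of the 80 higher (27.5%), where it called 1.86% of 11960 genes higher and 0.326% lower. With all 16 libraries and log2 Pf4 as a covariate, edgeR called 31 of the 80 higher (38.75%), where 3.36% of 13436 genes were higher and 0.156% lower. Without control 10 that fit called 11 (13.75%), with 1.26% of 12739 genes higher and 0.0235% lower. Leaving control 10 out of the comparison of groups, so that 5 libraries stood against 4, gave 31 higher genes (0.251% of 12341) and 0 lower (0%) in edgeR. Among these 31 were 6 platelet genes, Gp9, Gp1bb, Clec1b, P2ry12, Myl9 and Gng11. Leaving out any other single library called none of the 80. These fits share the same libraries and are not separate evidence.

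Within run B, where controls 7, 8 and 5 stood against controls 4 and 10, 69 of the 80 platelet genes (86.25%) were positive, with a median log2 fold change of 1.12, and 49.1% of all genes were. Ribosomal protein entries were positive as often in run B (70 of 81, 86.42%), with a median of 0.149. In run A, control 2 exceeded control 3 in 66 of the 80 platelet genes (82.5%), in 55.56% of the ribosomal protein entries and in 49.0% of all genes. With the run code as a term the median of the 80 was 0.94 and no gene was called. Without controls 2 and 8, highest in the mean log2 level of the liver list, and controls 10 and 12, highest in that of the fat list, it was 0.65.

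**Figure D2:**
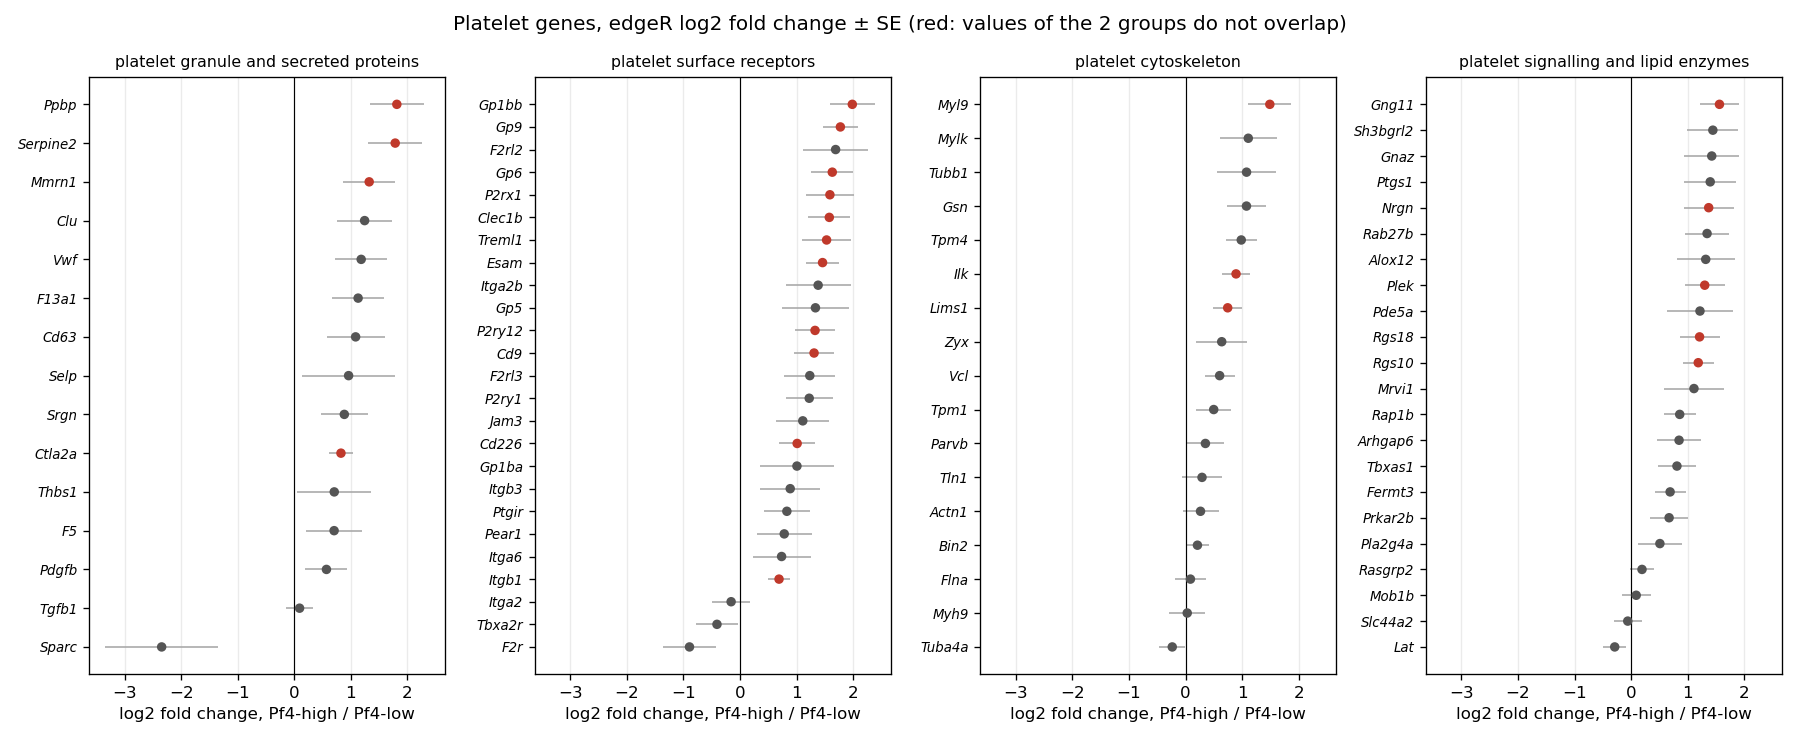
Log2 fold change, Pf4-high over Pf4-low, of 79 of the 80 platelet genes tested, by list (edgeR, bars are ± SE, 5 libraries a group). Red points are the 23 drawn genes in which the values of the groups do not overlap. Most receptors lie above 1, and Sparc lies farthest below 0, at -2.35.

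Among granule and secreted proteins 15 of 18 symbols were tested. At an unadjusted p under 0.05, 7 were higher and 1 was lower, beside 7.00% and 7.15% of all genes. The median log2 fold change was 0.96. Mmrn1 (ENSRNOG00000024986), multimerin, which binds coagulation factor V in alpha granules, was 4872, 2213, 3123, 3999 and 2257 in the Pf4-high and 1510.3, 1161, 1743, 1905 and 230.4 in the Pf4-low libraries. Its groups did not overlap (log2 fold change 1.32 ± 0.46, edgeR adjusted p = 0.29). Serpine2 (ENSRNOG00000015461), a protease inhibitor, rested on few counts, 32.2 to 58.8 against 4.13 to 27.2, and did not overlap. It had a log2 fold change of 1.78 ± 0.47 (edgeR adjusted p = 0.192).

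Ctla2a did not overlap either (log2 fold change 0.82 ± 0.21, edgeR adjusted p = 0.176). The other 11 granule genes tested overlapped between the groups. Vwf (ENSRNOG00000019689), the adhesive protein that tethers platelets to the vessel wall, was 1308, 1034, 4231, 1889 and 1059 in the Pf4-high and 761, 533, 1417, 1087 and 363 in the Pf4-low libraries, where control 4 exceeded 3 of the 5 high libraries. Thbs1, thrombospondin, gave 0.71 ± 0.66. Controls 4 and 13, with 1044 and 983, exceeded controls 8, 2, 5 and 7 in it. F13a1, the coagulation factor XIII A chain, gave 1.13 ± 0.46 and Clu, clusterin, 1.24 ± 0.48 (SE; adjusted p from 0.321 to 0.613 over these 4 genes in edgeR). Selp, P-selectin, ranged across the groups, from 49.4 in control 3 to 1653 in control 11, with 1289 in control 8. Sparc (ENSRNOG00000012840), an extracellular matrix protein, was 43.7, 221, 104, 63.5 and 74.3 in the Pf4-high and 50.8, 1556, 50.5, 58.8 and 895 in the Pf4-low libraries. Controls 12 and 10 held nearly all of the low group's counts, and its log2 fold change of -2.35 ± 0.99 (edgeR adjusted p = 0.338) turned to 0.93 without these libraries. Fabp4 and Adipoq, made by fat cells, were also highest in controls 12 and 10 (Adipoq 1042 and 68.5 normalized counts, 0 to 8.76 in Pf4-high libraries). Their part in the Sparc values was not tested.

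Surface receptors had the highest median of the 4 lists. All 26 were tested, and 18 were higher at an unadjusted p under 0.05 (beside 7.00% of all genes). In 12 the groups did not overlap (beside 2.07%), and the median log2 fold change was 1.27. Their summed level was 76807 to 133270 normalized counts in Pf4-high and 13533 to 57470 in Pf4-low libraries, without overlap. The glycoprotein Ib-IX-V complex, the receptor for von Willebrand factor, is built from the products of Gp1ba, Gp1bb, Gp9 and Gp5, and its genes spanned a wide range of values. Gp9 (ENSRNOG00000010015) was 1741, 1313, 1581, 1818 and 1448 in the Pf4-high, 573 to 1186 in the middle and 529, 503, 624, 498 and 143 in the Pf4-low libraries, and the lowest high value exceeded every middle one. Its means were 1580 ± 207 and 460 ± 184 (SD, n = 5 each) and its log2 fold change was 1.78 ± 0.31 (edgeR adjusted p = 0.0917, and 0.00758 without control 10). Gp1bb (ENSRNOG00000046981) was 4864, 4850, 6970.2, 5578 and 3733 against 1558, 930, 2118, 1565 and 364, with a log2 fold change of 1.99 ± 0.39 (edgeR adjusted p = 0.112), the largest of the 80. Gp1ba (ENSRNOG00000025959), the chain that binds von Willebrand factor, was 457, 639, 2614, 1157 and 696 against 421, 196, 1083, 940 and 98.1. Control 7 had less Gp1ba than controls 4 and 13, and the log2 fold change was 1.01 ± 0.65 (edgeR adjusted p = 0.478). Gp5 lay between, at 1.33 ± 0.60. Whether these genes of one complex differ from each other in fold change was not tested.

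Clec1b (ENSRNOG00000008107), the podoplanin receptor CLEC-2, was 23472, 22769, 30173, 27405 and 19812 in the Pf4-high and 9208, 9393, 9326, 11116 and 2136 in the Pf4-low libraries. Controls 3, 12, 4 and 13 lay close together and control 10 far below them. Its log2 fold change was 1.58 ± 0.37 (edgeR adjusted p = 0.148) and 1.34 without control 10 (adjusted p = 0.0359). Gp6 (ENSRNOG00000047204), the collagen receptor, was 2092, 1302, 1849, 3327 and 1974 against 715, 610, 935, 907 and 216, again without overlap (log2 fold change 1.63 ± 0.37, edgeR adjusted p = 0.139). Esam, an adhesion molecule of platelets and endothelium, was 135 to 280.2 against 42 to 101, and gave 1.46 ± 0.29 (edgeR adjusted p = 0.112). Treml1 (1.53 ± 0.43) and the ADP receptor P2ry12 (1.33 ± 0.36) also separated the groups, with adjusted p of 0.205 and 0.195 in edgeR.

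Promoter sequence is shown for the marker Itga2b and for Gp9 and Clec1b because GATA1 and FLI1, the factors of megakaryocytes whose own transcripts are described further on, bind motifs that hold GATAA and GGAAG. Each line below is the 150 bases upstream of the start of a receptor gene, 5′ to 3′ on the strand of the gene, from RefSeq on the build GRCr8. Capitals mark GATAA and GGAAG on either strand (TTATC and CTTCC when read on the other one). The windows are chr10:87925834-87925983 on the minus strand, chr4:121792692-121792841 on the plus strand and chr4:164533959-164534108 on the plus strand.
Itga2b: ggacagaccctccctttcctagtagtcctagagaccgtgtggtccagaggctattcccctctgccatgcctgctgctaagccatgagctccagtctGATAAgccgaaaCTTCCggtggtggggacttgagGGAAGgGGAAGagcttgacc
Gp9: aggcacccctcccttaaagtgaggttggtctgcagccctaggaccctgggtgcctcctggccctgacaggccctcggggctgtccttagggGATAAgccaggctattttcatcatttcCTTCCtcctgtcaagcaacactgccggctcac
Clec1b: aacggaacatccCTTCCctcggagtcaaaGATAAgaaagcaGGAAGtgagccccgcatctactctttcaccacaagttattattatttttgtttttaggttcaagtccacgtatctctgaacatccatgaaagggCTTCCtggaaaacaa
Each window holds 1 GATAA, and GGAAG occurs 3 times in Itga2b, once in Gp9 and 3 times in Clec1b. Itga2b, whose groups overlapped, and Gp9, whose groups did not, each carry both motifs. Gp1bb, Treml1 and Gng11 separated the groups as Gp9 did. In the 250 bases upstream Gp1bb held GGAAG but no GATAA, and Treml1 and Gng11 held neither. The 150 bases upstream of Auh, a gene called between the groups, also held neither. In the 250 bases upstream, both strands read, 9 of the 20 receptor genes with an entry held GATAA (45%), 15 held GGAAG (75%) and 8 held both (40%), where the 33469 promoters of the table gave 23.47%, 63.29% and 13.84%. The GATAA share was 58.33% of 12 genes in the erythroid and 46.15% of 13 in the liver list, and 44.44% and 42.86% in the cardiac and endothelial ones. Over the 4 lists 69 of 85 symbols matched, and the shares were 21.74%, 76.81% and 20.29%, with no GATAA in the 16 cytoskeletal genes matched. The lists took 1 promoter per symbol, whereas the 33469 counted every promoter entry, so these shares are over unlike units. All are matches of letters and not binding sites, and Pf4 had no entry. Whether either motif goes with the fold change of a gene was not tested.

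Receptors for thrombin and thromboxane had values in both directions. F2rl2 (ENSRNOG00000018054), the protease-activated receptor 3 of rodent platelets, was 8924, 1714, 4017, 20099 and 4966 in the Pf4-high and 1548, 1906, 2685, 4341 and 1737 in the Pf4-low libraries. Control 2 fell among the low libraries there, and the log2 fold change was 1.69 ± 0.58 (edgeR adjusted p = 0.284). F2r, protease-activated receptor 1, rested on few counts, 9.99 to 51.3 against 34.7 to 60.7, and gave -0.89 ± 0.46 (edgeR adjusted p = 0.405). The thromboxane receptor Tbxa2r gave -0.41 ± 0.37 and the integrin Itga2 -0.16 ± 0.34 (edgeR adjusted p = 0.605 and 0.842). These were the 3 receptor genes with a negative value. Itgb3, the beta chain that pairs with Itga2b, was 1861, 1602, 2654, 2788 and 1474 against 775, 440, 2471, 1656 and 246 (log2 fold change 0.89 ± 0.53, edgeR adjusted p = 0.448), and control 4 of the low group exceeded 3 of the 5 high libraries in it.

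**Figure D3:**
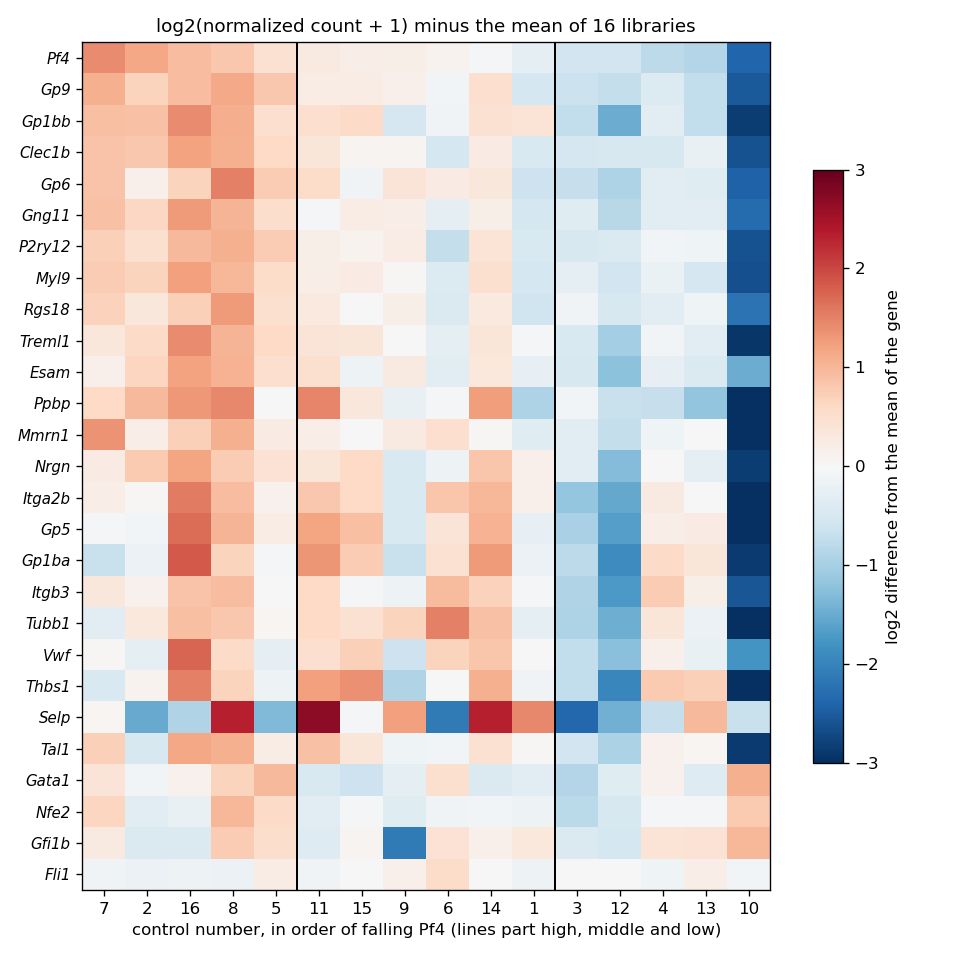
Log2(normalized count + 1) minus the mean of the 16 libraries, for Pf4, 21 platelet genes and 5 megakaryocyte transcription factors (rows) in libraries placed by falling Pf4 (columns). Red is above and blue below the mean of the gene, and vertical lines part the Pf4-high, middle and Pf4-low libraries. The upper rows fall from left to right, while in Itga2b, Gp5, Gp1ba, Vwf and Thbs1 control 16 is highest and controls 11 and 14 of the middle exceed control 7.

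The cytoskeleton list had the lowest median of the 4 lists, 0.60. At an unadjusted p under 0.05, 7 of 17 genes were higher (beside 7.00% of all genes), and 3 did not overlap (beside 2.07%). Myl9 (ENSRNOG00000020246), the regulatory light chain of myosin in platelets and smooth muscle, was 30632, 28834, 42918, 36064 and 26881 in the Pf4-high and 14805, 12238, 15843, 12841 and 2933 in the Pf4-low libraries. Its log2 fold change was 1.49 ± 0.38 (edgeR adjusted p = 0.182) and 1.24 without control 10 (adjusted p = 0.0418). Ilk (0.89 ± 0.25) and Lims1 (0.74 ± 0.25), 2 partners in integrin adhesions, also did not overlap. Tubb1 (ENSRNOG00000046151), the beta tubulin of the platelet marginal band, was 592, 937, 1391, 1315 and 784 against 396, 269, 965, 666 and 70.1, with its highest value, 2125, in control 6 of the middle (log2 fold change 1.08 ± 0.53, edgeR adjusted p = 0.382). The others ranged from -0.24 ± 0.23 (Tuba4a) to 1.11 ± 0.50 (Mylk, myosin light chain kinase). Among them Gsn, gelsolin, gave 1.08 ± 0.35, Vcl, vinculin, 0.60 ± 0.27, Tln1, talin, 0.29 ± 0.35, Flna, filamin, 0.09 ± 0.27 and Myh9, nonmuscle myosin, 0.03 ± 0.31.

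Among signalling and lipid enzymes 13 of 22 were higher at an unadjusted p under 0.05 (beside 7.00% of all genes). In 5 the groups did not overlap (beside 2.07%), and the median was 1.15. Gng11 (ENSRNOG00000047914), a G protein gamma subunit, was 4867, 4036, 6369, 5368 and 3800 in the Pf4-high, 1836 to 3053 in the middle and 2033, 1467, 2118, 2090 and 531 in the Pf4-low libraries. The log2 fold change was 1.56 ± 0.34 (edgeR adjusted p = 0.129, and 0.0418 without control 10). Rgs18 and Rgs10, which limit G protein signals, gave 1.21 ± 0.35 and 1.19 ± 0.27, and Plek, pleckstrin, 1.30 ± 0.35, all without overlap. Nrgn, neurogranin, a calmodulin-binding protein abundant in platelets, was 18633 to 35525 against 2178 to 15642 (1.37 ± 0.44, edgeR adjusted p = 0.269). Ptgs1 and Alox12, the cyclooxygenase and lipoxygenase of platelets, gave 1.40 ± 0.46 and 1.32 ± 0.51 with overlap, as control 4 exceeded control 2 in Ptgs1 and control 13 exceeded control 7 in Alox12. Lat, a signalling adaptor, had the lowest value of the list (-0.29 ± 0.21).

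Transcription factors of megakaryocytes had values in both directions. Of 12, 11 were tested (Mecom failed the filter) and 6 were positive. At an unadjusted p under 0.05, 1 was higher, near the 7.00% of all genes, and 0 were without overlap (beside 2.07%). Their median was 0.11, it was 0.40 without control 10, and it was -0.22 with total count scaling, where the median of all genes was -0.44. Tal1 (ENSRNOG00000025051) was the one, with 2633, 1165, 3611, 3383 and 1878 against 1082, 838, 1751, 1692 and 220 (log2 fold change 1.17 ± 0.48, edgeR adjusted p = 0.329). Gata1 (ENSRNOG00000025534) ranged over 2971 to 6133 in the Pf4-high libraries and was 1710, 2443, 3420 and 2404 in controls 3, 12, 4 and 13. Its highest value of all 16 was in control 10, the library with the least Pf4 (log2 fold change 0.38 ± 0.35, edgeR adjusted p = 0.609, and 0.79 without control 10, adjusted p = 0.212). Nfe2 gave 0.44 ± 0.35, Runx1 0.37 ± 0.33, Fli1 -0.08 ± 0.14 and Gfi1b -0.08 ± 0.34 (adjusted p from 0.56 to 0.923 in edgeR). Gata1, Nfe2, Gfi1b and Tal1 are also expressed in the red cell lineage. The erythroid list had a median of 0.23 (0.64 without control 10, -0.14 with a run term and -0.07 with total count scaling), with 0 of 17 genes past an unadjusted p under 0.05. Alas2, the heme synthesis enzyme of red cells, gave 0.40 ± 0.41, and 0.91 without control 10, which held its highest value of the 16 libraries (edgeR adjusted p = 0.645 and 0.158).

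The 3 genes called between the groups belong to none of the lists. Auh (ENSRNOG00000011684), a mitochondrial enzyme of leucine breakdown that also binds AU-rich RNA, was 1015, 1101, 1037, 1079 and 875 in the Pf4-high and 538, 537, 576, 550.2 and 498 in the Pf4-low libraries. All 6 middle libraries, at 637 to 805, lay between. The means were 1021 ± 88.3 and 540 ± 28 (SD, n = 5 each), and the log2 fold change was 0.92 ± 0.12 (edgeR adjusted p = 0.0439). Agrp (ENSRNOG00000039001), agouti-related neuropeptide, was 279, 177, 179, 250.2 and 154 against 50.1, 64, 53.6, 43.4 and 20.2, with 50.5 to 128 in the middle (log2 fold change 2.15 ± 0.29, edgeR adjusted p = 0.0439). Pcyt1b (ENSRNOG00000012358), an enzyme of phosphatidylcholine synthesis, was 141, 54.6, 108, 227 and 225 against 1.37, 1.47, 2.06, 1.93 and 15.6 normalized counts, or 617 reads summed over the high and 18 over the low libraries. In the middle, controls 9 and 6 had 112 and 118 and the other 4 had 0.871 to 5.98, so this gene was either near 0 or high rather than graded. It had 2 reads in controls 3, 12, 4 and 13 each and 10 in control 10. It therefore passed the filter on low counts through the Pf4-high libraries. Its log2 fold change was 5.29 ± 0.69 (edgeR adjusted p = 0.0439), and it was not called with Pf4 as a covariate over 16 libraries (adjusted p = 0.268). Auh and Agrp were called there as well, at adjusted p of 0.000646 and 1.91e-05.

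All 3 were narrow calls, and none of them was called without a filter on low counts. Leaving out any one library other than controls 2 and 10 removed all 3 of them, and leaving out control 2 removed Auh and Agrp. Without control 10 all 3 remained, at adjusted p of 0.0359, 0.0193 and 0.00427 for Auh, Agrp and Pcyt1b. With the run code as a term or in run B alone their log2 fold changes were 0.93 and 0.89 (Auh), 2.36 and 2.57 (Agrp) and 4.72 and 4.63 (Pcyt1b), none with an adjusted p under 0.05 in edgeR. The 2 genes next in order did not pass. Atox1 (ENSRNOG00000013118), a copper chaperone, was 3303, 3464, 3353, 3747 and 2994 against 1863, 1584, 1528, 1414 and 982 (1.19 ± 0.18, edgeR adjusted p = 0.0852), and Slc24a4, a sodium, potassium and calcium exchanger, was 23.3 to 58.8 against 3.11 to 11.3 (2.28 ± 0.35, edgeR adjusted p = 0.0852). Slc24a4 rested on few counts, 156 reads summed over the high and 42 over the low libraries. Like Pcyt1b, it passed the filter mainly through the Pf4-high libraries.

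No gene was called lower in Pf4-high blood by edgeR, against 39 by DESeq2. The 5 with the smallest p all had non-overlapping groups. RGD1560849 was 105 to 133 against 179 to 261 normalized counts (log2 fold change -0.90 ± 0.16, edgeR adjusted p = 0.0917). Dennd4c, an exchange factor for Rab GTPases, gave -0.92 ± 0.17, Cers4, a ceramide synthase, -0.92 ± 0.18, S100pbp -0.64 ± 0.14 and Inpp4b, a phosphoinositide phosphatase, -0.86 ± 0.19 (adjusted p from 0.0959 to 0.137 in edgeR).

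**Figure D4:**
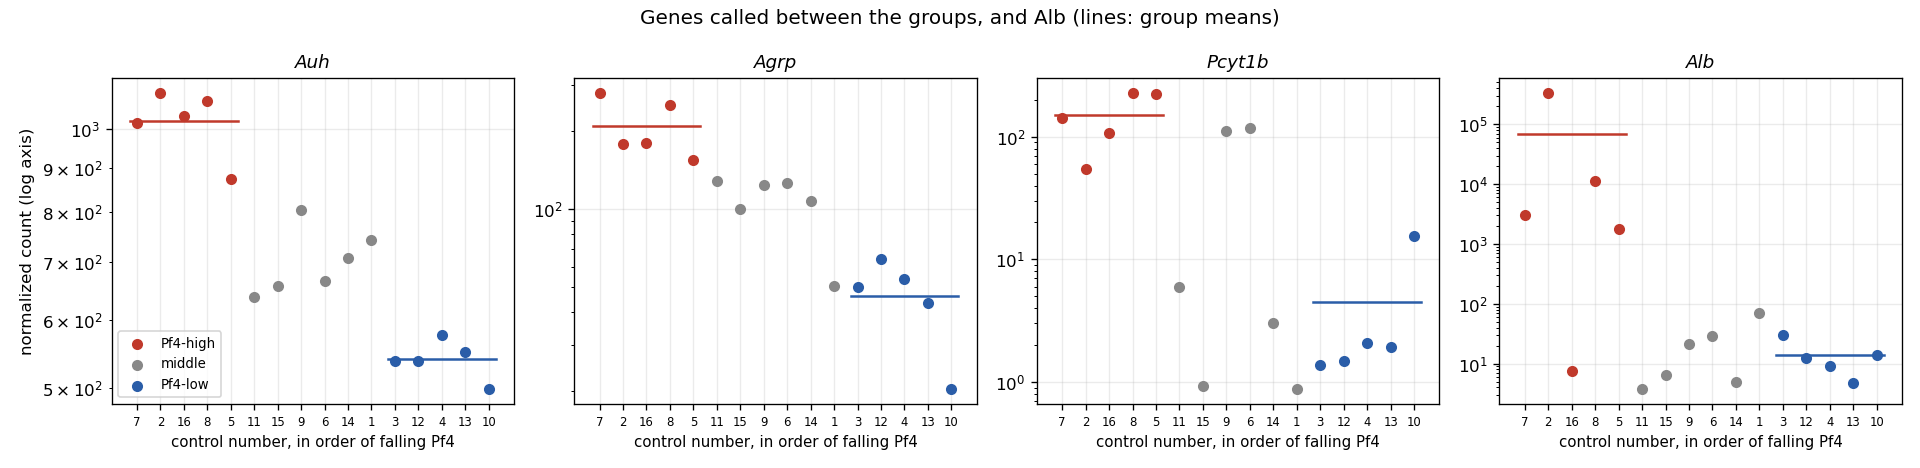
Normalized counts (log axes) of the 3 genes called between the groups and of Alb in the 16 libraries, placed by falling Pf4, with lines at the means of the groups of 5. Auh and Agrp are graded, Pcyt1b is above 50 in 7 libraries and under 20 in 9, and Alb is 1793 or more in controls 7, 2, 8 and 5 and at most 71.4 in the rest.

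Lists for the other white cells of blood are described over the same libraries, and no member was called in the edgeR test of the groups. T cell genes were negative in all 12 (median -0.44), 5 of them (Cd2, Cd3e, Cd28, Lef1 and Tcf7) at an unadjusted p under 0.05, beside 7.15% of all genes, and none was called in the edgeR test of the groups. Cd28 (ENSRNOG00000010283), a costimulatory receptor, was 217, 213, 220.1, 180.2 and 311 against 446, 341, 446, 253 and 504 and overlapped only through control 5 and control 13 (log2 fold change -0.81 ± 0.21, edgeR adjusted p = 0.186). It was the 1 T cell gene called lower by DESeq2 (adjusted p = 0.0357, beside 0.326% of all genes) and by edgeR with Pf4 as a covariate over 16 libraries (adjusted p = 0.0156, beside 0.156%, and 0.131 without control 10). In run B all 12 T cell genes were negative, with a median of -0.84, and control 2 was below control 3 in all 12. B cell genes had a median of -0.26 with 1 of 9 lower (Cr2) at an unadjusted p under 0.05, near the 7.15% of all genes. Natural killer cell genes had a median of -0.07 with 0 of 9 past that threshold. Neutrophil genes were positive in all 10 tested, with a median of 1.32, but only 1 of them (Lcn2) had an unadjusted p under 0.05 (beside 7.00% of all genes) and 0 were without overlap. Their median was 2.56 in run B, but in run A control 2 exceeded control 3 in 4 of the 10. It was 0.61 without controls 2 and 8 and 0.47 without controls 2, 8, 10 and 12. Lcn2, a protein of neutrophil granules, was 40140 in control 8 and 34711 in control 14 of the middle, and 33.8 to 242 in the other 4 Pf4-high libraries. Summed neutrophil levels were 66122 to 1180100 in Pf4-high and 61558 to 366200 in Pf4-low libraries. Monocyte genes had a median of 0.46, with 1 of 10 higher (Itgax) at an unadjusted p under 0.05, near the 7.00% of all genes. In run A control 2 exceeded control 3 in 2 of the 10 monocyte genes.

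Immediate early genes had a median of 0.51, with 2 of 11 lower at an unadjusted p under 0.05 (Egr1 and Egr3), beside 7.15% of all genes. Globin genes had a median of 0.64, with 1 of 8 higher (Hba2), beside 7.00% of all genes. That median was 1.00 without control 10 and 0.25 in run B. Ribosomal protein entries had a median of 0.16, with 70 of 81 positive and 0 of 81 past an unadjusted p under 0.05. The 5 of 10 endothelial genes tested had a median of 0.18, with none past that threshold. Total count scaling moved the median of all genes to -0.44, and with that shift the erythroid, ribosomal, endothelial and transcription factor medians and the 1 cardiac gene came to lie below 0.

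**Figure D5:**
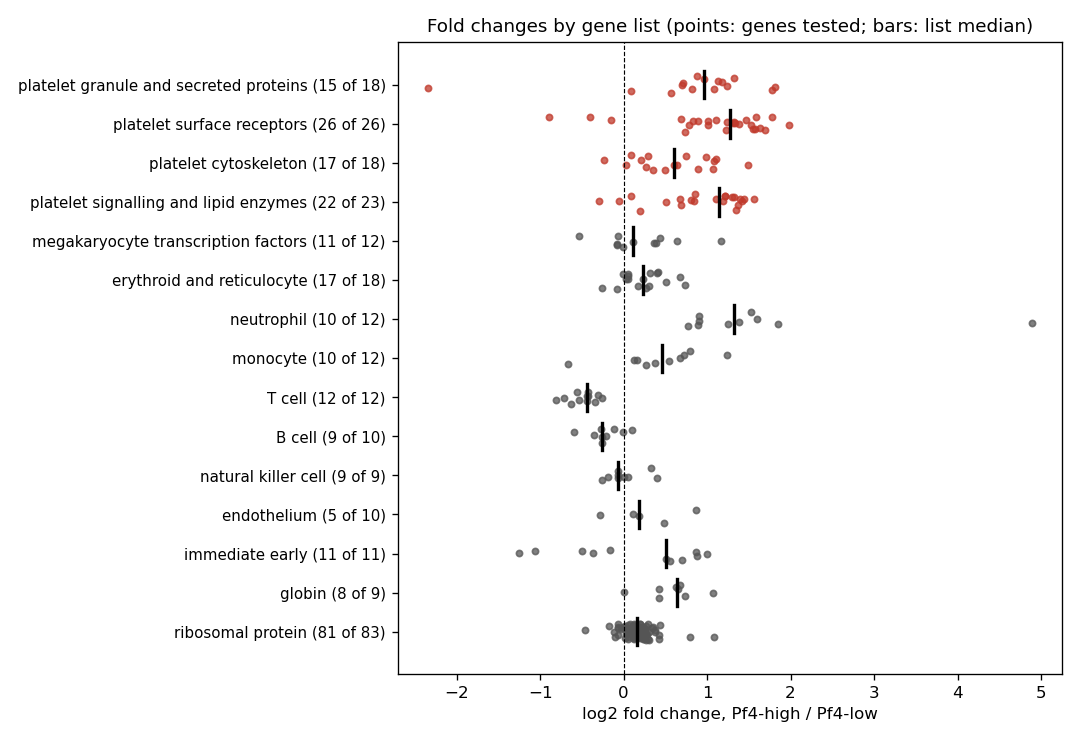
Log2 fold changes, Pf4-high over Pf4-low, of every gene tested in each list (points) with the median of the list (bars). Numbers in parentheses are genes tested and symbols in the list, and platelet lists are red. The platelet medians lie between 0.60 and 1.27, that of the megakaryocyte transcription factors at 0.11 and that of the T cell genes at -0.44, and the 10 neutrophil genes spread widely.

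Transcripts of tissues outside the blood differed in amount between single libraries. Alb (ENSRNOG00000002911), serum albumin, made in the liver, was 3102, 330270, 7.5, 11402 and 1793 in the Pf4-high and 30.2, 12.5, 9.28, 4.82 and 14 in the Pf4-low libraries, and 3.74 to 71.4 in the middle. The 4 libraries with the most Alb, 1793 or more, were all Pf4-high, and control 16, also Pf4-high, had 7.5. Of 18 liver genes 8 passed the filter, and all 8 were higher at an unadjusted p under 0.05 (beside 7.00% of all genes). Their median was 7.79, and none was without overlap. In Pf4-low libraries Alb was at most 30.2 and Ttr at most 10.9, so such genes passed the filter mainly through Pf4-high libraries. The 8 of 8 therefore partly follows from the filter and is no support for a difference. In the edgeR test of the groups none of the 8 was called. With Pf4 as a covariate edgeR called 5 of the 8 higher (Alb, Apoa1, Fgg, Ttr and Serpina1) over 16 libraries and 5 without control 10, beside 3.36% and 1.26% of all genes. The same 8 genes were counted there, so these counts also partly follow from the filter and are no support for a difference. DESeq2 called Fgg (adjusted p = 0.000349) and gave no adjusted p for Alb, Apoa1, Ttr, Serpina1 and Pck1. Without controls 2 and 8 the median of the liver genes was 2.91. The summed liver level was 593028 normalized counts in control 2 and 137952 in control 8, but 6442 in control 16, within the 5510 to 25805 of the Pf4-low libraries. In the middle it was 3851 to 78203, highest in controls 14 and 15, which had 5.00 and 6.53 of Alb and neutrophil sums of 637825 and 532912. The sum includes Hp, haptoglobin, which neutrophils also express, and so does not measure liver transcripts alone. Without controls 2 and 8 the median of the 80 platelet genes was 0.89. The part of liver RNA in the platelet values was not tested. Thymus genes (4 of 8 tested, median -1.04) and fat genes (5 of 10, median -0.42) had their highest summed levels in Pf4-low libraries (8236 and 8643 normalized counts). Without controls 10 and 12 their medians were -0.025 and 0.99, and in run B the thymus median was 0.022. The fat median thus changed sign, but it is over 5 genes of mixed direction, 2 of them positive with all 10 libraries. Among them Pck1 (4.27 ± 1.82) is also in the liver list. Rag1, which recombines antigen receptor genes in thymocytes, was 4189 in control 12 and at most 23.4 elsewhere. Cardiac muscle was represented by 1 tested gene of 10, Mybpc3 (0.23 ± 0.50), and Mb, myoglobin, was 204 in control 10 and at most 28 in the others. Without controls 10 and 12 the median of the platelet genes was 0.74.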

How the data were processed

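The study drew blood from the hearts of saline-treated rats, removed globin mRNA with capture oligonucleotides and made stranded libraries from polyadenylated RNA, which were read as paired ends. Bases were called with CASAVA 1.8.2, reads were clipped and aligned with Bowtie 0.12.9 to Ensembl transcripts of rn5 (release 70), and the authors deposited estimated counts per gene from RSEM 1.2.0. RSEM divides a read among the transcripts it matches, so genes with near-identical copies are uncertain. The deposited expected counts carried no normalization. Between 19.3% and 27.1% of them per library had decimals, and all were rounded before use. The study's replacement of outlying values was not applied.

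Only the 18031 genes listed in all 16 files (of 26405 in any) were used. They held at least 99.9936% of the counts, and 15544 had a symbol. Where a symbol had several entries, the one with the highest total was taken. Normalized counts are rounded counts over DESeq2 median-of-ratios size factors over all 16, and 1 was added before taking log2. The 5 libraries with the most and the 5 with the least normalized Pf4 were compared with edgeR 4.0.16 in R 4.3.3 (TMM scaling, filterByExpr, quasi-likelihood F-test, Benjamini-Hochberg adjustment over all genes tested, threshold 0.05), with Pf4 left out. A standard error is the log2 fold change over the square root of F. DESeq2 1.42.0, limma 3.58.1, other scalings, filters, groupings and left-out libraries served as alternatives. Library measures were compared by a two-sided exact permutation test of the difference in means, enumerating all 252 assignments in Python with numpy 2.4.6.

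A p-value here measures whether a gene differed between the ends of the Pf4 order beyond the spread of these animals. All pairs of libraries differed by more than sampling noise (lowest chi-square per degree of freedom 48.0, controls 11 and 13). A count of 0 allows up to 3 counts, or 0.0962 to 0.14 CPM, for counting error only. The run codes were read from the names of the files and treated as batches; neither the names nor the labels say what they stand for. The study repeated its experiment at separate times, and no label ties a library to a repeat. The 17 lists of genes other than globins and ribosomal proteins, the members and the tests were chosen with earlier results of these data known. Named are the platelet markers, the members of the platelet and megakaryocyte lists, the defining or called members of the other lists, and, as fewer than 5 genes were called in either direction, the 5 genes with the smallest p in each direction. One platelet gene, counted in its list, is not reported or drawn here by name. Promoters were matched by symbol.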

Additional observations from a re-analysis of the deposited data

Results flagged for a closer look

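In 5 of 74 groups of 5 values examined, 1 library lay far from the other 4 by Dixon's ratio of gap to range (critical value 0.71), and chance alone gives about 1 in 20, or 3.7. On the log2 scale, Pcyt1b in control 10 was 4.05, against 1.61 for the next of the Pf4-low libraries (ratio 0.869). Dennd4c in control 8 was 6.78, the lowest of the Pf4-high libraries, with the next at 7.19 (0.712). Cers4 in control 4 was 7.45, the highest of the Pf4-low libraries, with the next at 6.97 (0.725). The mean log2 level of the T cell list in control 13 was 10.28, the lowest of the Pf4-low libraries, with the next at 10.76 (0.740). The mean log2 level of the thymus list in control 12 was 8.21, against 4.85 for the next Pf4-low library (0.748).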

How the results depend on the processing

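Over 29 alternatives 43 named genes kept their direction and side of the threshold in 1099 cases, gained an adjusted p under 0.05 in 85, lost it in 55 and reversed in 6. The 3 higher genes became 1 with total count scaling or without controls 2 and 8, and 0 without a filter, with 4 against 4 libraries, ranked by Ppbp, with a run term, in run B alone or without controls 10 and 12. They became 223 with DESeq2 (39 lower, 22 platelet genes among the higher), 427 with DESeq2 without control 10 (31 lower, 27 platelet), 451 per doubling of Pf4 over 16 libraries (21 lower, 31 platelet) and 160 without control 10 (3 lower, 11 platelet). With each library left out in turn there were 0 to 31 higher and 0 lower genes. Platelet genes among them were 0 to 6 (7.5% at most, without control 10, beside 0.251% of all genes). The platelet median then ran from 0.81 to 1.17. That median was 0.49 with total count scaling and 0.41 per doubling of Pf4 without control 10, a unit that differs from a fold between groups. Reversed were Gata1 (-0.0596 per doubling, -0.13 ranked by Ppbp), Alas2 (-0.0753 and -0.21) and Sparc (0.44 without controls 2, 8, 10 and 12, 0.93 without 10 and 12). The number of genes with a count, Pf4-high minus Pf4-low -35.2, was 14 more with 4 against 4, 35 more over all genes listed, and from -196 to 99.3 when one library was left out. The mitochondrial share, 0.006 percentage points higher, then ran from -0.0513 to 0.0599, the globin share from 2.12 to 4.55, the ribosomal share from -1.41 to -0.42, the share of the 20 highest genes from 1.95 to 5.78, and the total count stayed higher in Pf4-high libraries by 1.04e+06 or more. The cause of these changes was not tested. Run B alone, both pairs of controls left out, and the DESeq2 and per-doubling fits without control 10 were chosen after the data were seen. No paired analysis was possible because the control numbers name animals of one group. Genes with few counts, such as Serpine2, F2r, Slc24a4 and Pcyt1b, are limited by depth.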
